A study of Rattus norvegicus with 35 samples.

Results

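The liver disposes of ammonia through the urea cycle and through the making and breaking of glutamine, and 7 genes of these reactions were followed here in rat liver: the cycle enzymes Cps1, Otc, Ass1, Asl and Arg1, the glutamine synthetase gene Glul and the liver glutaminase gene Gls2. They were chosen by gene symbol, and all 7 were among the 13438 genes measured by a probe set that carries 1 gene symbol. Each of 35 liver samples had its RNA read on a single-colour array of its own, as normalized log2 signals, so that a difference of 1 is a doubling. Control rats underwent hemorrhage and then resuscitation (H/R), which gave the control H/R group of 6 arrays, or a sham of that procedure, which gave the control sham group of 5 arrays. Rats with secondary biliary cirrhosis from ligation and resection of the common bile duct were given vitamin K every week, were studied 4 weeks after surgery and had either procedure (ligated sham, 5 arrays, and ligated H/R, 6 arrays). Further ligated rats took simvastatin, a statin that blocks HMG-CoA reductase, by daily gavage of 5 mg per kg. Dosing began 3 days ahead and ended 1 h ahead of the procedure, which was again sham (simvastatin sham, 5 arrays) or H/R (simvastatin H/R, 8 arrays). Ligation was done under midazolam and ketamine. The labels used here give neither strain nor age, and they do not say whether the control rats had a sham operation on the bile duct or whether the rats without simvastatin received vehicle. Nor do they say that each sample came from a different rat, so the spread behind each p-value is that between samples and may be partly technical.

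In mitochondria, carbamoyl phosphate synthetase 1 (Cps1) joins ammonia and bicarbonate, and ornithine transcarbamylase (Otc) transfers the product to ornithine to form citrulline. In the cytosol, argininosuccinate synthetase (Ass1) and argininosuccinate lyase (Asl) turn citrulline into arginine, and arginase 1 (Arg1) splits arginine into urea and ornithine. The cycle enzymes and the glutaminase Gls2, which frees ammonia from glutamine, belong mainly to periportal hepatocytes, whereas glutamine synthetase (Glul) is made by a thin layer of pericentral hepatocytes that catches ammonia which escaped the cycle.

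The arrays differed in several respects that bear on the values below. All 7 genes were far above the nonspecific probes, whose brightest reached 2.71 to 5.16 on single arrays: the lowest signal of any of the 7 was 7.49. Cps1, Ass1 and Arg1 lay at the top of the scale, at or above the 99.2 percentile of their array on every array, with a highest signal of 13.79 in the whole data set. The array of simvastatin sham replicate 1 stood apart. Its 3′ minus 5′ difference between GAPDH control probe sets was 2.20, against at most 0.34 on the other 34 arrays, and for beta-actin it was 4.30 against at most 2.34. Values that rest on this array are therefore given with and without it. The number in each sample title ends in 13 for all 11 control arrays and for no ligated array without simvastatin. What the endings mean is not stated, and between untreated ligated and control rats ligation and ending cannot be told apart. Of the simvastatin arrays, all from ligated rats, 9 share the ending 13 with the controls. On these 9 Otc ran from 7.74 to 10.10, against 10.70 to 11.01 on the 11 control arrays, and Glul from 10.06 to 10.52 against 8.64 to 9.78, without overlap. Gls2, at 8.13 to 9.25 against 9.18 to 9.77, and the other 4 genes overlapped within this ending. How many of all genes lacked overlap in this split was not counted, so these ranges are only a description. The array medians were 3.97 to 4.02 in the controls and 4.06 to 4.29 in the ligated groups. The BioD minus BioB difference of the hybridization controls was 3.11 to 3.29 on the control arrays and 3.43 to 3.93 on the ligated ones. The 9 simvastatin arrays with ending 13 spanned that same 3.43 to 3.93. The brightest nonspecific probe averaged 4.51 and 4.59 in the control groups and 3.26 to 4.00 in the ligated groups. Ligation and these array differences cannot be told apart.

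Tissue markers moved with ligation as well. The mean log2 signal over the 7 measured of 8 hepatocyte markers was 12.97 to 13.09 on the control arrays and 12.37 to 12.91 on the ligated ones. Over 8 cholangiocyte markers it was 4.01 to 5.39 on the control arrays and 7.70 to 9.05 on the ligated ones, and over 8 stellate cell and matrix markers 5.32 to 5.71 against 6.35 to 7.49. In controls the signal of the nonspecific probes was not exceeded by 4 of the 8 cholangiocyte and 3 of the 8 stellate markers. In ligated sham rats 7 of 8 cholangiocyte and 7 of 8 stellate markers passed as higher, 87.5% each, beside 47.6% of all genes in either direction. Of the hepatocyte markers 3 of 7 passed as lower (Ttr, Fgb and Apoh), a share of 42.9% that was near that background. Macrophage, endothelial and lymphocyte markers gave 2 higher and 1 lower of 6, 1 and 2 of 5, and 2 and 1 of 5, and the median difference was 0.15 over 4 neutrophil and -0.27 over 3 red cell markers. Alb, the albumin gene and a defining hepatocyte marker, differed by -0.05 in sham rats (adjusted p = 0.568). The part of the change in cell makeup in the results below was not tested, and in whole tissue fewer cells of a type and less RNA per cell cannot be told apart.

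Ligated rats were first compared with control rats. Without hemorrhage, 2 of the 7 genes passed the threshold (limma, Benjamini-Hochberg adjusted p under 0.05 over 13438 genes), both lower: Otc was lowered 3.21-fold and Gls2 1.44-fold. After hemorrhage, in groups that share the estimate of spread but no array with the former, 4 of the 7 passed: Otc was lower 3.62-fold, Gls2 2.12-fold and Arg1 1.23-fold, and Glul was higher 1.80-fold. The other 3 enzymes of the cycle, Cps1, Ass1 and Asl, did not pass in either on the deposited scale. Passing was common among all genes, at 47.6% in sham rats and 47.0% in H/R rats, so that the share of the 7 genes that passed, 28.6% and 57.1%, was on either side of the background. The median difference over the 7 genes was 0.08 in sham rats and -0.15 in H/R rats, beside -0.04 and -0.03 over all genes tested.

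**Figure D1:**
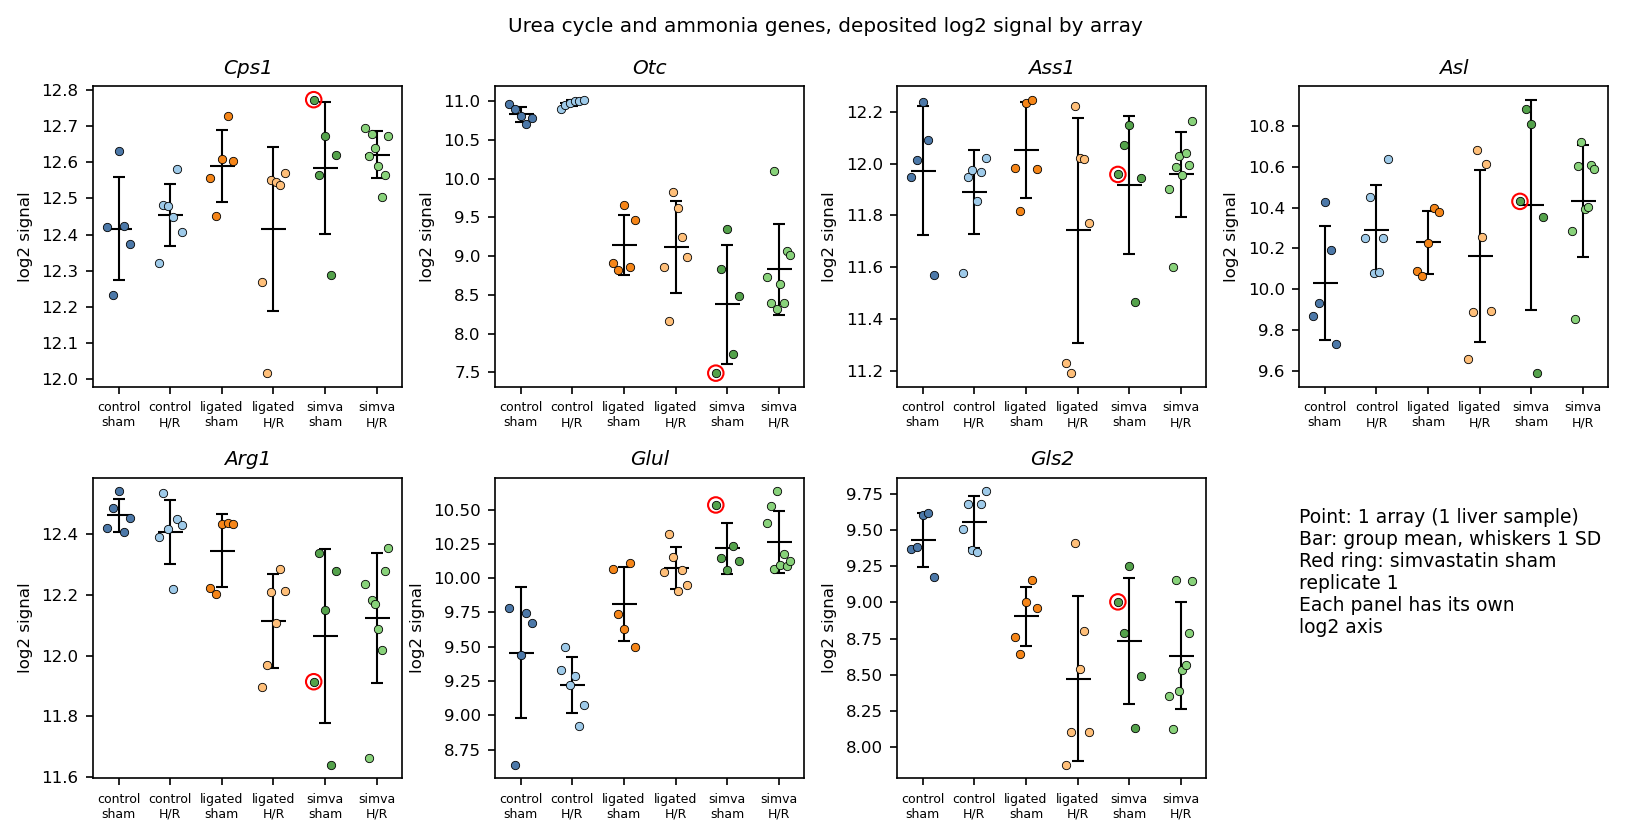
Deposited log2 signal of the 7 genes (vertical axes, each panel with its own range) on every array in the 6 groups (horizontal axis), with the group mean as a bar and 1 SD as whiskers, and a red ring around simvastatin sham replicate 1. Otc lies at 10.70 to 11.01 on the control arrays and at 7.49 to 10.10 on the ligated ones, while the Cps1 groups overlap.

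Otc and Cps1 act one after the other in the mitochondrion and behaved differently, so the 250 bases before their RefSeq transcript starts (build GRCr8) are shown. Capitals mark a match, on either strand, to the HNF4 motif CAAAGTNCA or the C/EBP motif TTGCNNAA, named for liver transcription factors. These motifs occurred in 1.06% and 9.22% of 33469 RefSeq promoters of the same length. Otc lies at chrX:15126358-15202473 and its window at chrX:15202474-15202723 on the minus strand. Cps1 lies at chr9:76063863-76186739 and its window at chr9:76063613-76063862 on the plus strand.
Otc: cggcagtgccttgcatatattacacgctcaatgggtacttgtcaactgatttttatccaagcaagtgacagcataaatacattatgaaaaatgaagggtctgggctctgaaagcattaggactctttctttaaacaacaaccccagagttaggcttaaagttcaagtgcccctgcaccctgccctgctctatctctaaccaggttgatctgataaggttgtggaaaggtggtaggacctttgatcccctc
Cps1: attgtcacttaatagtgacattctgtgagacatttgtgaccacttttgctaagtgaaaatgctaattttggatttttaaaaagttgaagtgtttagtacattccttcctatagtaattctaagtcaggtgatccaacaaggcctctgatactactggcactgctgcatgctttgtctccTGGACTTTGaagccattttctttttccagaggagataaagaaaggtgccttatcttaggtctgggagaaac
The Cps1 window held 1 HNF4 match, on the minus strand, at positions -71 to -63 counted from the start, and no C/EBP match. The Otc window held no exact match to either. Only exact copies of these letters were sought, so sites that depart from them by a base were not counted. Whether either factor acts on these genes was not tested. RefSeq promoters were present for 6 of the 7 genes, with more than 1 start for Glul and Gls2, and no other window of these held either motif. The letters TGTTCT of the glucocorticoid receptor and TGACG of the cAMP response element were also sought. They occurred in 17.52% and 18.22% of all promoters. Among these windows only 1 of Gls2 held a match, TGACG at -224 to -220 and at -166 to -162.

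Cps1, the entry step of the cycle, had control sham signals of 12.42, 12.23, 12.63, 12.42 and 12.38. The ligated sham arrays gave 12.56, 12.45, 12.61, 12.73 and 12.60. The groups overlapped, and the difference of 0.17 ± 0.10 (SE) did not pass (limma, adjusted p = 0.156), with a 95% interval of -0.03 to 0.38. After H/R, Cps1 ran from 12.32 to 12.58 (median 12.46) in controls and from 12.02 to 12.57 (median 12.54) in ligated rats. The medians differed little, and the lower mean of the ligated group rested on replicates 1 and 2, at 12.27 and 12.02. The difference was -0.04 ± 0.09 (adjusted p = 0.759), with an interval of -0.22 to 0.15. A fall of the size seen for Otc lies outside both intervals for this probe set.

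Otc, the next step, had the clearest difference of the 7 genes. Its control sham signals were 10.96, 10.90, 10.81, 10.70 and 10.78, and those of ligated sham rats 8.92, 8.83, 9.66, 8.86 and 9.46. No ligated sham array reached the lowest control. The difference was -1.68 ± 0.30 (SE; limma, adjusted p = 2.1e-05), which left 31.1% of the control level. After H/R, Otc ran from 10.90 to 11.01 (median 10.99) in controls and from 8.16 to 9.83 (median 9.12) in ligated rats, again without overlap. The difference was -1.86 ± 0.27 (adjusted p = 1.06e-06), or 27.6% of the control level. The spread among arrays also differed: the SD was 0.04 to 0.10 in the control groups and 0.39 to 0.77 in the 4 ligated groups. The fit assumes 1 spread for all groups. The Otc call held in each of the 20 and 22 alternative fits of the 2 comparisons, with differences from -2.21 to -1.44. The difference between both ligation effects was -0.17 ± 0.40 (adjusted p = 0.988), with an interval of -0.99 to 0.65.

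Of the cytosolic enzymes, Arg1 passed in H/R rats, and Ass1 and Asl in neither comparison. Ass1 (chr3:35144765-35194632), which joins citrulline to aspartate, differed by 0.08 ± 0.16 in sham rats (adjusted p = 0.715) and by -0.15 ± 0.15 in H/R rats (adjusted p = 0.428). Its control sham signals were 11.95, 12.01, 12.24, 12.09 and 11.57, and its ligated sham signals 11.98, 11.82, 12.23, 12.25 and 11.98, of which 4 lay within the control range. In ligated H/R rats Ass1 ran from 11.19 to 12.22 (median 11.89), with replicates 1 and 2 lowest, against 11.58 to 12.02 (median 11.96) in control H/R rats.

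Asl (chr12:32295779-32313257), which releases arginine, differed by 0.20 ± 0.20 (adjusted p = 0.424) and -0.13 ± 0.18 (adjusted p = 0.593). Its signals were 9.87, 9.93, 10.43, 10.19 and 9.73 in control sham and 10.09, 10.07, 10.22, 10.40 and 10.38 in ligated sham rats. The ligated arrays lay inside the control range. In H/R rats the ranges were 10.08 to 10.64 (median 10.25) in controls and 9.66 to 10.68 (median 10.07) in ligated rats, which overlap widely.

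Arg1 (chr1:22295093-22307720), the last enzyme, was 12.42, 12.49, 12.54, 12.41 and 12.46 in control sham and 12.22, 12.20, 12.43, 12.44 and 12.43 in ligated sham rats. In this comparison 3 of the 5 ligated arrays lay within the control range, and the difference of -0.12 ± 0.12 did not pass (adjusted p = 0.431). Among H/R rats, Arg1 ran from 12.22 to 12.54 (median 12.43) in controls and from 11.90 to 12.29 (median 12.16) in ligated rats. The groups overlapped, and Arg1 fell by 0.29 ± 0.11 (adjusted p = 0.0253). This call was lost without control H/R replicate 2, ligated H/R replicate 1 or ligated H/R replicate 2 (adjusted p = 0.0555, 0.0715 and 0.0607), and after a repeated quantile normalization (-0.11, adjusted p = 0.382) or centring on the hepatocyte markers (-0.04, adjusted p = 0.718).

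Gls2 (chr7:1201757-1218014), which feeds ammonia from glutamine to the cycle, had control sham signals of 9.37, 9.38, 9.61, 9.62 and 9.18. Ligated sham rats gave 8.76, 8.64, 9.01, 9.15 and 8.96, all below the lowest control. Gls2 fell by 0.53 ± 0.22 (adjusted p = 0.0487). That value is at the threshold: the call was lost in 8 of the 10 fits that left out 1 array, with adjusted p from 0.0407 to 0.111 over the 10. It was also lost after a repeated quantile normalization (-0.46, adjusted p = 0.0858) and after centring on the hepatocyte markers (-0.28, adjusted p = 0.225). Gls2 in H/R rats ran from 9.35 to 9.77 (median 9.59) in controls and from 7.88 to 9.41 (median 8.32) in ligated rats. Ligated replicate 3, at 9.41, was inside the control range and the other 5 were below it. Here it fell by 1.09 ± 0.20 (adjusted p = 4.17e-05), and the call held in all 22 alternative fits.

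Glul (chr13:68519500-68585554), which fixes ammonia in glutamine, moved the other way. Its control sham signals were 9.78, 8.64, 9.44, 9.75 and 9.67, with replicate 2 far below the others, and its ligated sham signals were 10.07, 9.74, 9.63, 10.11 and 9.50. The groups overlapped, and the difference of 0.35 ± 0.17 did not pass (adjusted p = 0.0776). It passed without control sham replicate 1, control sham replicate 4 or ligated sham replicate 5 (adjusted p = 0.0398, 0.0456 and 0.0432), and without control sham replicate 2 it was 0.15 (adjusted p = 0.406). Glul in H/R rats ran from 8.92 to 9.50 (median 9.26) in controls and from 9.91 to 10.32 (median 10.05) in ligated rats, without overlap. Glul rose by 0.85 ± 0.15 (adjusted p = 2.09e-05), and the call held in all 22 alternative fits, with differences of 0.50 to 1.10.

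**Figure D2:**
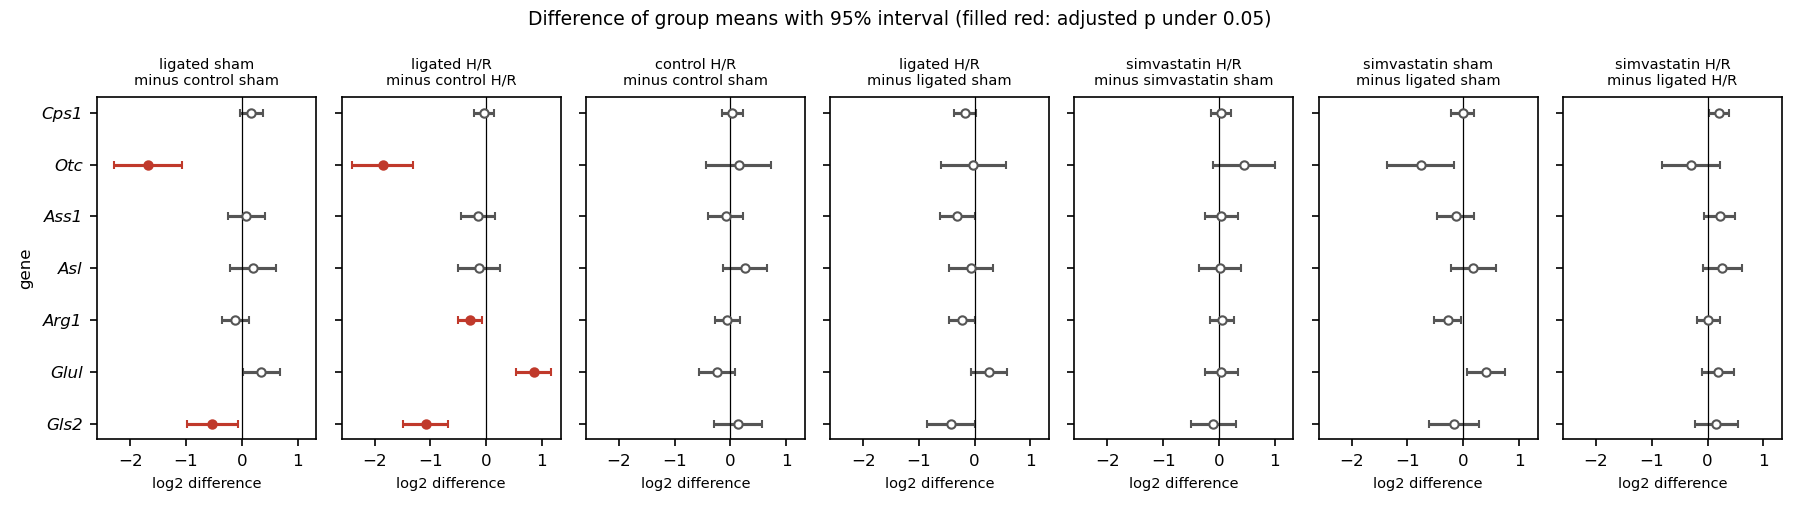
Log2 difference of group means (horizontal axis) with its 95% interval for the 7 genes (rows) in the 7 comparisons of 2 groups (panels), filled red where the adjusted p was under 0.05. The filled points are Otc and Gls2 in ligated against control sham rats and Otc, Gls2, Arg1 and Glul in ligated against control H/R rats.

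The size of these differences depended on how the arrays were scaled. Centring each array on its median moved the median difference over all genes to -0.42 in sham rats and -0.38 in H/R rats, and the share of passing genes that were higher from 53.0% to 20.9% and from 52.5% to 21.1%. Centring on the hepatocyte markers moved that median to 0.20 and 0.22 and the share to 77.3% and 79.2%, and a repeated quantile normalization moved the share to 42.6% and 42.9%. Relative to the median over all genes, which centring does not alter, the difference in sham rats was -1.64 for Otc, -0.48 for Gls2 and 0.39 for Glul, and in H/R rats -1.83, -1.05 and 0.88. On the same footing Cps1, Ass1 and Asl were 0.22, 0.12 and 0.24 in sham rats and -0.01, -0.12 and -0.10 in H/R rats. Their direction changed with the scaling in both comparisons. In sham rats they were -0.21, -0.30 and -0.18 after median centring and 0.42, 0.32 and 0.45 after centring on hepatocyte markers, where all 3 passed as higher (adjusted p = 0.000138, 0.0382 and 0.0239). Cps1 also passed as higher in sham rats after quantile normalization (0.29, adjusted p = 0.0121). In H/R rats Cps1, Ass1 and Asl passed as lower after median centring, at -0.39, -0.50 and -0.48 (adjusted p = 0.00209, 0.00735 and 0.0277). The direction of Glul in sham rats also turned, to -0.03 after median centring, and that of Arg1 to 0.04 after quantile normalization and 0.13 after centring on hepatocyte markers.

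The array holds more than 1 probe set for Cps1, Asl and Glul, and these bear on how far a single value can be trusted. The second probe set of Cps1 gave differences of 0.11 ± 0.31 and -0.34 ± 0.28 in the sham and H/R comparisons, neither of which passed (adjusted p = 0.792 and 0.354 over 19063 probe sets). That of Asl gave 0.33 ± 0.19 and -0.08 ± 0.17 (adjusted p = 0.144 and 0.738). In the platform table its accession belongs to another gene, Hnrnpab, while its signal followed the brightest Asl probe set (r = 0.94 over 35 arrays after subtraction of group means, given as a description). For Glul in H/R rats, the second probe set passed at 0.55 ± 0.12 (adjusted p = 0.00045) and the third did not, at 0.36 ± 0.29 (adjusted p = 0.32). In sham rats they gave 0.10 ± 0.13 and 0.004 ± 0.31. All 3 Glul probe sets were thus higher after ligation in H/R rats, by amounts from 0.36 to 0.85, and 2 of the 3 passed.

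Simvastatin sham replicate 1 was where the probe sets of a gene parted. On that array the brightest Cps1 probe set read 12.77, the highest of all 35 arrays, and the second read 9.40, the lowest of all. The brightest Glul probe set read 10.53, the highest of its group, and the others read 8.65 and 4.89, again the lowest of all. After subtraction of group means the correlation with the brightest probe set was 0.51 for Cps1 and 0.28 and 0.006 for the Glul probe sets over 35 arrays, and 0.86, 0.50 and 0.51 over the 34 other arrays. Otc, Ass1, Arg1 and Gls2 have 1 probe set each, so that no such check could be made. The calls of the 7 genes in both ligation comparisons, which use this array only for the common estimate of spread, were the same when it was left out of the fit (2 and 4 genes).

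**Figure D3:**
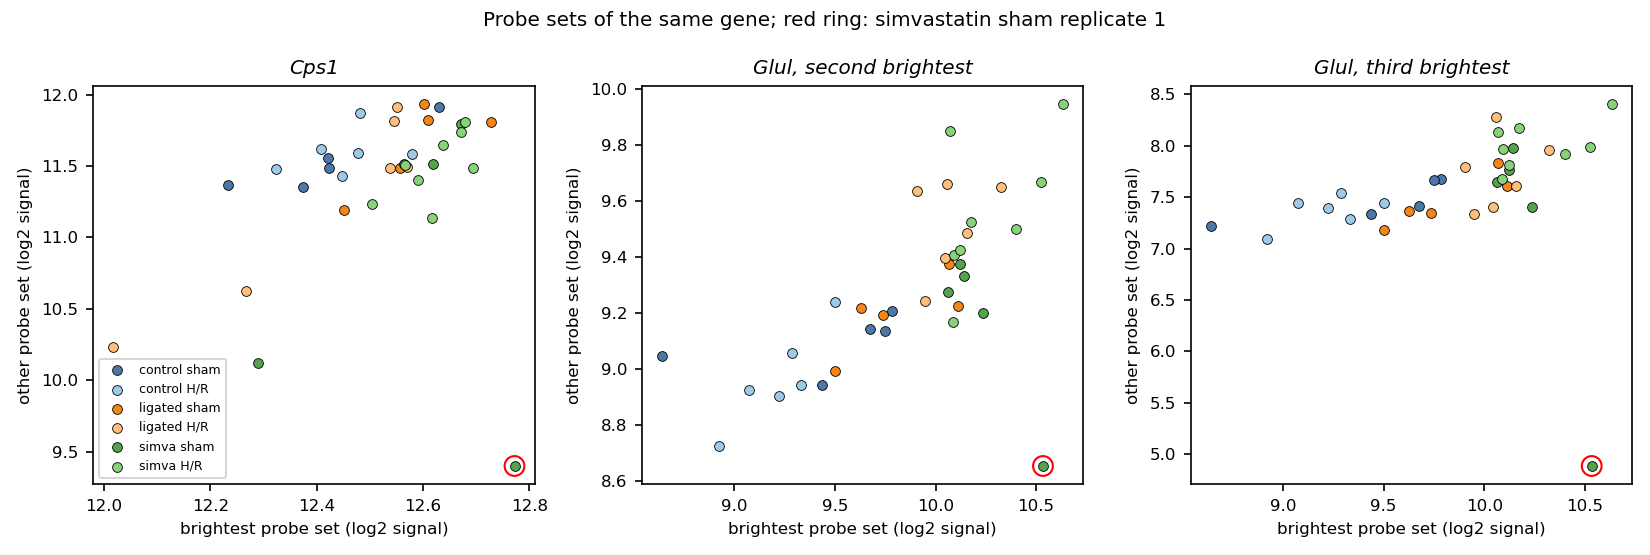
Log2 signal of the brightest probe set of Cps1 or Glul (horizontal axes) against another probe set of the same gene (vertical axes), 1 point per array, coloured by group. The ringed array, simvastatin sham replicate 1, is at 12.77 and 9.40 for Cps1, away from the other 34 arrays.

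Many genes of the reactions around the cycle were lower. Of 23 measured carriers and enzymes around the cycle, 13 were lower and 2 higher in ligated sham rats, with a median difference of -0.49 against -0.04 over all genes, and 14 were lower and 5 higher in ligated H/R rats, with a median of -0.59 against -0.03. The share that passed was 65.2% in sham and 82.6% in H/R rats, beside 47.6% and 47.0% of all genes. Lower in both were 12 genes and higher in both 1, Arg2, which was dim in the controls. Of the 12, Slc38a5 was above the nonspecific probes in no group. Slc7a2 was not above them in control sham and ligated H/R rats. Median centring gave 15 lower and 1 higher in sham rats, and centring on the hepatocyte markers 10 and 6. The list was written with earlier results of these data known.

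Among the genes that feed the mitochondrial steps, Nags, which makes the N-acetylglutamate that Cps1 needs as activator, was 8.61 in control sham and 7.32 in ligated sham rats and fell 2.43-fold (-1.28 ± 0.34, adjusted p = 0.00206). Car5a, the mitochondrial carbonic anhydrase that supplies bicarbonate, fell 2.60-fold in sham rats (-1.38 ± 0.24, adjusted p = 1.39e-05) and 3.19-fold in H/R rats (-1.67 ± 0.22, adjusted p = 1.13e-07). Slc25a13, the liver aspartate-glutamate carrier citrin, which exports the aspartate used by Ass1, fell 2.66-fold (-1.41 ± 0.23, adjusted p = 6e-06). Its relative Slc25a12 fell 1.40-fold in sham rats (adjusted p = 0.00597) and differed by -0.04 in H/R rats (adjusted p = 0.832).

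Genes of glutamine and amino group traffic followed. Slc38a3, a glutamine transporter of hepatocytes and other cells, had the largest fall of the list in sham rats, at 3.32-fold (-1.73 ± 0.29, adjusted p = 1.04e-05). The alanine aminotransferases Gpt and Gpt2 fell 2.35-fold and 2.20-fold (adjusted p = 0.0032 and 6e-05). The mitochondrial aspartate aminotransferase Got2 fell 1.55-fold (adjusted p = 2.33e-05), and 1.64-fold in H/R rats (adjusted p = 7.92e-07). Its cytosolic counterpart Got1 rose 1.99-fold in sham rats (0.99 ± 0.25, adjusted p = 0.00127) and differed by 0.34 in H/R rats, which did not pass (adjusted p = 0.224).

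The proline enzymes Prodh and Aldh4a1, which break proline down to glutamate, fell 2.29-fold and 2.50-fold in sham rats (adjusted p = 0.000307 and 0.000118), and Aldh4a1 3.12-fold in H/R rats (adjusted p = 1.23e-06). Gamt, the second enzyme of creatine synthesis, fell 1.92-fold (adjusted p = 4.45e-05). Aldh18a1, which starts proline synthesis, was 4.32 in control H/R rats, not above the nonspecific probes there, and at least 2.20-fold higher in ligated H/R rats (adjusted p = 2.02e-06). Of the calls in sham rats, Arg2, Slc38a5 and Slc7a2 had a group mean that was not above the nonspecific probes, and no fold is given for them.

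**Figure D4:**
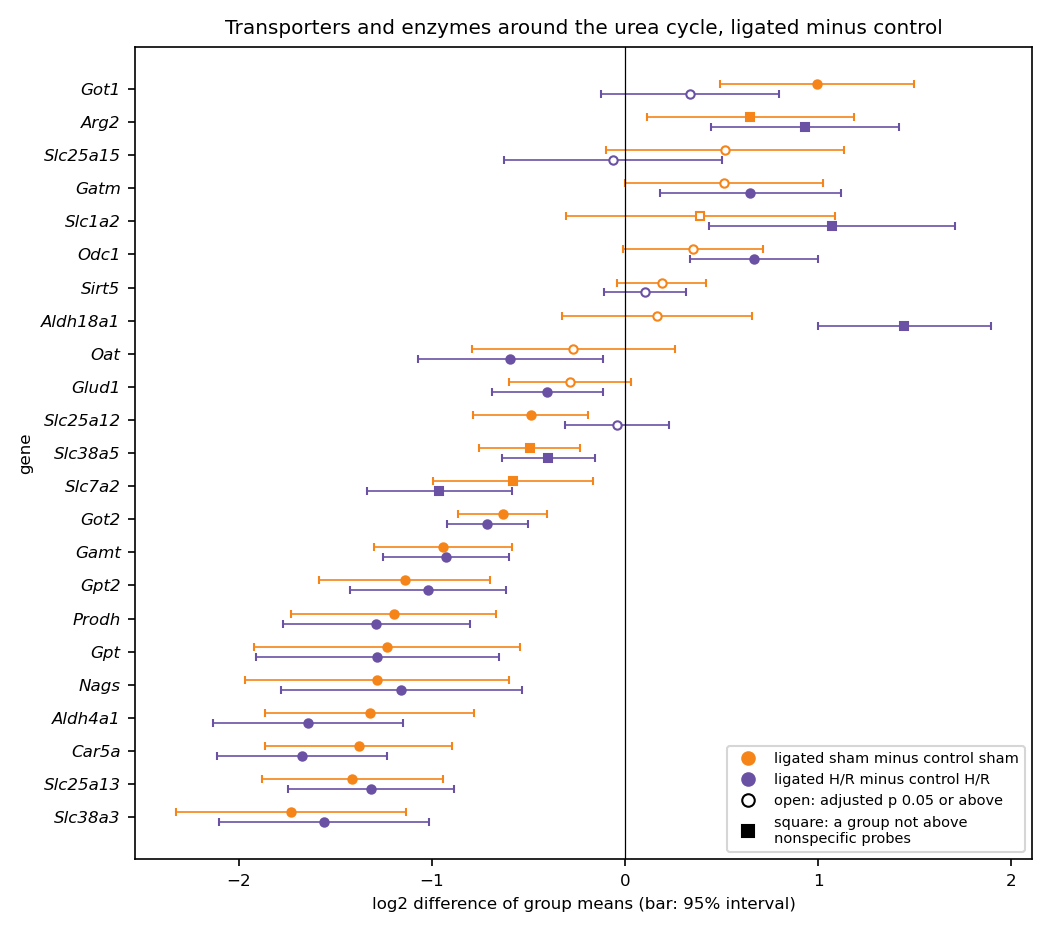
Log2 difference of ligated from control rats (horizontal axis, with 95% interval) for 23 carriers and enzymes around the urea cycle (rows), in sham rats (orange) and H/R rats (purple). Open symbols did not pass and squares mark a group not above the nonspecific probes; Slc38a3 is lowest in sham rats at -1.73 and Got1 highest at 0.99.

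Genes known to regulate the cycle were also measured. Of 10, 4 were lower and 1 higher in ligated sham rats, and 5 were lower and 1 higher in ligated H/R rats. These 5 of 10 and 6 of 10 were near the 47.6% and 47.0% of all genes. Centring on the hepatocyte markers gave 3 lower and 1 higher, and 2 lower and 2 higher. Gcgr, the receptor of glucagon, a hormone that raises the expression of urea cycle enzymes, fell 3.64-fold in sham rats (-1.86 ± 0.24, adjusted p = 8.18e-08) and 3.56-fold in H/R rats (adjusted p = 1.9e-08). Hnf4a, a nuclear receptor that maintains hepatocyte genes, fell 1.72-fold (adjusted p = 0.00253) and 2.02-fold (adjusted p = 5.14e-05). Cebpb, a transcription factor of the acute phase and of amino acid metabolism, fell 1.60-fold in sham rats (adjusted p = 0.00309). Ctnnb1, the gene of beta-catenin, through which pericentral hepatocytes keep Glul on, rose 1.58-fold in both (adjusted p = 2.07e-06 and 5e-07). Prox1 passed as lower, but neither group was above the nonspecific probes.

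Both liver zones were followed with further genes. Of 9 periportal genes 5 were lower and 2 higher in ligated sham rats (77.8% against 47.6% of all genes), with a median of -0.58. In H/R rats 5 were lower and 1 higher (66.7% against 47.0%), with a median of -0.84. Hal, histidine ammonia-lyase, fell 4.94-fold (-2.31 ± 0.39, adjusted p = 1.17e-05), and Hsd17b13, a lipid droplet enzyme, 3.42-fold (adjusted p = 1.35e-06). Sds, serine dehydratase, which releases ammonia from serine, rose 2.62-fold (adjusted p = 0.00116) and did not pass in H/R rats (0.37, adjusted p = 0.344). Cdh1, E-cadherin, which bile duct epithelium also makes, rose 3.45-fold (adjusted p = 4.81e-09).

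Of 13 pericentral genes 4 were lower and 2 higher in sham rats, a share of 46.2% that was near the background of 47.6%, with a median of -0.04 that turned to 0.20 after centring on hepatocyte markers. In H/R rats 6 were lower and 3 higher (69.2% against 47.0%), with a median of -0.32. In both control groups 6 of the 13 genes were not above the nonspecific probes. Tbx3 and Znrf3 were above them in no group, and Znrf3 is counted among the lower genes. Cyp1a2, a drug-metabolizing P450, fell 7.06-fold in sham rats (adjusted p = 0.000287), and Gulo, the last enzyme of vitamin C synthesis, 2.30-fold (adjusted p = 8.6e-05). Cyp7a1, which sets the pace of bile acid synthesis, rose 5.79-fold (adjusted p = 6.02e-06). Nkd1, a target of beta-catenin signalling, passed as higher in sham rats, with controls not above the nonspecific probes, so that its rise was at least 1.23-fold (adjusted p = 0.0118). Of other genes in the list, Axin2, Tbx3 and Rnf43 did not pass in sham rats and Znrf3 passed as lower. In controls none of these was above the nonspecific probes. Whether beta-catenin signalling differed was not tested.

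The response to hemorrhage and resuscitation was sought in each of the 3 pairs of groups. By limma none of the 7 genes passed in control, ligated or simvastatin-treated rats (0 of 7 in each), where 0.856%, 0.134% and 0% of all genes passed. At an unadjusted p under 0.05 the counts were 0, 1 and 0 of the 7. In controls the differences ran from -0.23 for Glul to 0.26 for Asl, and all 95% intervals lay between -0.56 and 0.73. In ligated rats the largest was -0.43 ± 0.21 for Gls2 (adjusted p = 0.48), followed by Ass1 at -0.31 ± 0.16 (adjusted p = 0.492), and Arg1, the gene with an unadjusted p under 0.05, at -0.23 ± 0.11 (adjusted p = 0.479). All groups overlapped for all 7 genes.

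The sample titles split the ligated arrays, and ligated H/R and ligated sham rats shared 2 endings (2 H/R against 1 sham array, and 1 against 3). Within these the Gls2 difference was -0.68 in both and that of Glul 0.30 and 0.56. Otc differed by -0.35 and -0.91, against -0.03 over all arrays of these groups. Ass1 gave -0.34 and -0.73, Arg1 -0.27 and -0.32, Asl -0.15 and -0.29, and Cps1 -0.05 and -0.52. The 1 H/R array of the latter ending was replicate 2, the lowest of its group for Cps1, Otc and Ass1. With the ending as a block 0 of the 7 genes passed. Around the cycle, 2 of 23 carriers and enzymes were lower in control H/R than in control sham rats: Slc25a12, by 0.67 ± 0.14 (adjusted p = 0.0118), and Aldh18a1, at least 1.71-fold (adjusted p = 0.0148), since control H/R was not above the nonspecific probes. By limma 0 of the 23 passed for H/R in ligated or simvastatin-treated rats, with 4 and 1 at an unadjusted p under 0.05.

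Whether hemorrhage acted differently in cirrhotic rats was tested as the difference of the H/R effects, in which 0.00744% of all genes passed. It was 0.50 ± 0.22 for Glul (adjusted p = 0.878), -0.56 ± 0.30 for Gls2 (adjusted p = 0.924) and between -0.33 and -0.17 for the other 5 genes, and none of the 7 passed (1 of 7 at an unadjusted p under 0.05). The fact that Glul passed the ligation comparison in H/R rats and not in sham rats is therefore not shown to be a difference between them.

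In simvastatin-treated rats the H/R difference furthest from 0 among the brightest probe sets was that of Otc, at 0.45 ± 0.27 (adjusted p = 0.888), and 0.23 without simvastatin sham replicate 1. Otc was 8.31 to 10.10 (median 8.69) in simvastatin H/R rats, and 7.49, 8.84, 9.35, 7.74 and 8.49 in simvastatin sham rats, which lay inside or below that range. The other probe sets gave 0.63 ± 0.28 for Cps1, 0.39 ± 0.12 and 0.87 ± 0.28 for Glul and -0.11 ± 0.17 for Asl. None passed (limma, adjusted p from 0.813 to 0.948). By the brightest, Cps1 and Glul each differed by 0.04. Without simvastatin sham replicate 1 the sham means of these Cps1 and Glul probe sets were 11.24, 9.29 and 7.70, beside 11.50, 9.56 and 8.01 after H/R. The difference of H/R effects between rats with and without simvastatin, in which 0.00744% of all genes passed, was 0.48 ± 0.39 for Otc (adjusted p = 0.998), and 0.25 without that array. None of the 7 passed (0 of 7 at an unadjusted p under 0.05).

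Simvastatin was then compared with no simvastatin in ligated rats. In sham rats 0 of the 7 genes passed, where 0.781% of all genes did, although 3 had an unadjusted p under 0.05. Otc differed by -0.76 ± 0.30 (adjusted p = 0.31), Glul by 0.41 ± 0.17 (adjusted p = 0.333) and Arg1 by -0.28 ± 0.12 (adjusted p = 0.352). Without simvastatin sham replicate 1 they were -0.54, 0.33 and -0.24 (adjusted p = 0.486, 0.445 and 0.431). The Glul signals were 10.53, 10.14, 10.06, 10.23 and 10.12 with simvastatin, of which 4 lay above the highest array without simvastatin, 10.11. For Glul the other probe sets gave -0.03 ± 0.13 and -0.33 ± 0.31 with all arrays, and 0.10 and 0.23 without replicate 1, so that the direction was shared only without that array. These groups hold no title ending in common, and drug and ending cannot be told apart.

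In H/R rats simvastatin also left 0 of the 7 genes past the threshold, where 1.35% of all genes passed. Cps1 differed by 0.21 ± 0.09 (adjusted p = 0.251) and was the 1 gene with an unadjusted p under 0.05. Its signals ran from 12.50 to 12.69 (median 12.63) with simvastatin and from 12.02 to 12.57 (median 12.54) without. The ranges overlapped, and ligated H/R replicates 1 and 2 were below all others. Asl, Ass1, Glul and Gls2 differed by 0.27, 0.22, 0.19 and 0.16, and Otc by -0.29 ± 0.26 (adjusted p = 0.66). Within the 1 shared title ending (2 arrays a group) the Cps1 difference was 0.26 and that of Otc -0.82. All intervals of the 7 genes lay between -0.81 and 0.62. Of the 23 carriers and enzymes 0 passed (limma) for simvastatin in sham or in H/R rats, with 4 and 3 at an unadjusted p under 0.05.

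Across the 6 groups the mean level of Otc fell in the order control H/R (10.98 ± 0.04 SD, n = 6), control sham (10.83 ± 0.10, n = 5), ligated sham (9.15 ± 0.39, n = 5), ligated H/R (9.12 ± 0.60, n = 6), simvastatin H/R (8.83 ± 0.59, n = 8) and simvastatin sham (8.38 ± 0.77, n = 5, and 8.60 ± 0.67 without replicate 1). The only step in this order between groups that did not overlap was the one from control sham to ligated sham. The order for Glul ran from control H/R (9.22 ± 0.20) over control sham (9.46 ± 0.48), ligated sham (9.81 ± 0.27), ligated H/R (10.07 ± 0.15) and simvastatin sham (10.22 ± 0.19) to simvastatin H/R (10.26 ± 0.22). All neighbours in it overlapped. Gls2 was highest in control H/R (9.56 ± 0.18) and lowest in ligated H/R (8.47 ± 0.57), and Arg1 was highest in control sham (12.46 ± 0.05) and lowest in simvastatin sham (12.07 ± 0.29). The group means of Cps1 spanned only 12.41 to 12.62, those of Ass1 11.74 to 12.05 and those of Asl 10.03 to 10.43.

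Within a group, the same arrays tended to be low for several of the genes. Ligated sham replicate 2 was the lowest of its group for 6 of the 7 genes, all but Glul, and its hepatocyte marker mean of 12.69 was also the lowest of the group. Ligated sham replicate 4 was the highest for 6 of the 7, all but Otc, while its marker mean of 12.76 was the next lowest. Simvastatin sham replicate 4 was lowest for 5 genes and had the lowest hepatocyte marker mean of its group, 12.37. Ligated H/R replicates 1 and 2 were lowest for 3 genes each, with the lowest marker means, 12.60 and 12.51. Replicate 2 was at the same time the highest of its group for Glul.

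After subtraction of group means, the 15 pairs among the 6 genes other than Glul had correlations from 0.40 to 0.82 over 35 arrays (Spearman 0.32 to 0.84), and from 0.53 to 0.83 without simvastatin sham replicate 1. The 6 pairs with Glul ran from -0.45, with Otc, to 0.07, with Cps1 (Spearman -0.58 to 0.03). With the hepatocyte marker mean the 6 genes correlated at 0.68 to 0.76 and Glul at -0.13. These are descriptions of values that share an array, and no test was made of them.

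The genes whose within-group pattern was most like that of each of the 7 were sought among genes above the median signal. For Otc they were Pon1, Ces1e and Cyp2c23 (r = 0.88, 0.86 and 0.86 over 35 arrays), for Cps1 Mat1a, Aass and Dhtkd1 (0.83, 0.77 and 0.75) and for Gls2 Cbs, Hpd and Fah (0.91, 0.82 and 0.80). Asl was most like Slc38a4, Cbs and Hpd (0.90, 0.84 and 0.82), and Ass1 like Slc38a4, Ahcy and Pcca (0.85, 0.80 and 0.79). Arg1 was most like Cpq, Pcca and Ndufs1 (0.78, 0.76 and 0.75). Glul had the weakest matches, Thrap3, Msl2 and Nlrx1 (0.66, 0.63 and 0.59). Without simvastatin sham replicate 1 these values ran from 0.56 for Glul and Nlrx1 to 0.91 for Gls2 and Cbs.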

How the data were processed

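The authors deposited normalized signals for every probe set, and a range of 1.51 to 13.79 shows a log2 scale. The sources used here do not name the normalization method. The 5 to 8 arrays of a group limit the precision. Of 31139 probe sets 19063 carried 1 symbol, 572 several and 11504 none. Symbols came from the platform annotation and were updated by Entrez number to RefSeq (GRCr8), with 18983 matched and 80 kept as listed. Each of 13438 genes was represented by its brightest probe set.

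All 9 comparisons came from 1 fit in limma 3.58.1 (R 4.3.3; lmFit and eBayes, 1 mean per group, 35 arrays), checked on simulated data, with Benjamini-Hochberg adjustment within each comparison and a threshold of 0.05. A bound for a gene not above background was taken against, per array, the higher of the brightest nonspecific probe and the gene's own signal.

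The genes and 12 lists (116 entries, 101 measured) were chosen with earlier results of these data known. The rule named the 7 genes throughout, list genes past the threshold in ligated sham rats, at most 4 per list by smallest p elsewhere, and the 3 most similar genes for each of the 7. The H/R values of Got1, Slc25a12 and Sds were added after their values were seen. Dim genes are counted in their lists. Alternatives were other moderation, array weights, a filter at the 30th percentile, 3 scalings, other probe sets, only the compared groups, title ending as a block, and leaving out each array.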

Additional observations from a re-analysis of the deposited data

Results flagged for a closer look

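Single arrays far from the rest of their group were sought for the 7 genes in all 6 groups, with Dixon's ratio of the gap to the range, which chance alone exceeds in about 1 in 20 groups. Otc in simvastatin H/R replicate 3 was 10.10, with a gap of 0.58 of the group's range (n = 8), and this was the ligated array closest to the controls. Ass1 in control H/R replicate 1 was 11.58, the lowest of 6, with a ratio of 0.626. Ass1 in simvastatin H/R replicate 2 was 11.60, the lowest of 8, with a ratio of 0.532, and the same array was lowest for 4 of the 7 genes.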

How the results depend on the processing

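Outside the fits that left out 1 array, 621 of 637 values of the 7 genes kept their side of the threshold, 5 lost it, 10 gained it and 1 reversed, while 32 values that passed nowhere changed sign. Among 889 fits that left out 1 array, 875 kept their side, 11 lost it and 3 gained it. All values that lost, gained or reversed a call came from both ligation comparisons, while these totals also hold the other 7, where no gene passed in any fit. In sham rats the number of the 7 genes that passed for ligation was 2. It became 5 with centring on hepatocyte markers (Otc lower and Cps1, Ass1, Asl and Glul higher, with Gls2 lost). It became 3 with quantile normalization or median centring and 1 with the second brightest probe set. In the latter fit Gls2, which has 1 probe set, kept its difference of -0.53 but not its call (limma, adjusted p = 0.054). The number was 1 to 2 when 1 array was left out (1 without control sham replicate 2 or 3 or ligated sham replicate 1, 2 or 3). In H/R rats it was 4, and it became 3 with quantile normalization and 7 with centring on the array median, with Cps1 at -0.39, Ass1 at -0.50 and Asl at -0.48. Cps1 in H/R rats reversed to 0.21 with centring on hepatocyte markers (adjusted p = 0.026). The cause of these changes was not tested. For the other 7 comparisons the number stayed at 0 in every alternative. Leaving simvastatin sham replicate 1 out of the shared spread, a fit chosen after seeing the data, changed no call.

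Counts over all genes moved more. Fitting only the groups compared lowered them from 115 to 11 for control H/R, from 18 to 3 for ligated H/R and from 105 to 22 for simvastatin in sham rats. Array weights raised the latter from 105 to 397, ligated H/R from 18 to 43, simvastatin in H/R rats from 182 to 748 and H/R with simvastatin from 0 to 6, and the title ending as a block lowered simvastatin in H/R rats to 20. Leaving out 1 array gave 50 to 190 for control H/R, 2 to 45 for ligated H/R, and 66 to 168 and 100 to 342 for simvastatin in sham and H/R rats; the lowest came without control H/R replicate 4, ligated H/R replicate 1, ligated sham replicate 1 and ligated H/R replicate 1. Both differences of H/R effects stayed between 0 and 5. No paired analysis was possible because the labels give no replicate numbers that groups share.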
